A study of Mus musculus with 15 samples.

Results

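The genes described here are 9 genes through which astrocytes, the supporting cells that wrap synapses and vessels, take up glutamate, move water and ions and connect to each other: Slc1a2, Slc1a3, Glul, Aqp4, Aldh1l1, Gja1, Gjb6, Mlc1 and Fgfr3. They were chosen by name, and all probe sets annotated to them on this Affymetrix mouse array were taken, 29 of the 45037 probe sets without controls. Of these, 28 were annotated to 1 of the genes alone and 23 were bright enough to be tested, with each of the 9 genes keeping at least 1, among 13168 tested genes. Total RNA from mouse forebrain was measured on 15 arrays, in 3 groups of 5. VEH-Sham 1 to 5 received a vehicle injection and sham surgery, VEH-HI 6 to 10 vehicle and hypoxic ischemia, a combined lack of oxygen and blood flow, and EPO-HI 11 to 15 erythropoietin at 5 U per g into the peritoneum and hypoxic ischemia. In every group the injection came 1 h before the procedure. No group received erythropoietin with sham surgery. The sources used here give no strain, age, sex or interval between injury and sampling, and leave it unsaid whether each sample is 1 animal, so p-values reflect variation among these samples that may be technical.

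Glutamate released at synapses is cleared mainly by the astrocyte transporters that Slc1a2 and Slc1a3 encode, and glutamine synthetase, the product of Glul, converts it to glutamine for return to neurons. Aqp4 encodes the water channel of astrocyte endfeet at vessels, and Mlc1 a membrane protein of the same endfeet that takes part in volume regulation. Gja1 and Gjb6 encode the main astrocyte connexins, which form the gap junctions that join astrocytes into a network. Aldh1l1 encodes a folate enzyme widely used as a marker of all astrocytes, and Fgfr3 a fibroblast growth factor receptor enriched in the astrocyte lineage. In injured brain such genes are read as a sign of how far astrocytes keep their supporting functions while they become reactive.

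Levels are log2(intensity + 16), differences are on that scale and understate the changes of dim probe sets, and each gene is represented by its brightest tested probe set unless a probe set is named. Levels of different probe sets were not compared with each other. VEH-Sham 1 to 4 stood apart from the other 11 arrays, a division that no label mentions: their median intensities were 55.3 to 57.9, against 39.2 to 44.4 in VEH-Sham 5 and the 10 arrays of hypoxic ischemia. The Gapdh 3' to 5' signal ratio, a sign of RNA quality, was 0.634 to 0.719 on these 4 arrays. On the other 11 it was 0.716 to 0.756. These ranges overlapped, with VEH-Sham 3 at 0.719 and EPO-HI 11 at 0.716. For Actb the range of the same ratio on these 4 arrays, 1.283 to 1.399, lay within that of the other 11, 1.241 to 1.504. The part of RNA quality in the differences was not tested. The differences of named probe sets and genes from VEH-Sham are therefore given also from VEH-Sham 5 alone, which is 1 array and carries no spread of its own. VEH-Sham 5 lay outside the range of VEH-Sham 1 to 4 for 6 of the 9 genes and inside the range of the arrays of hypoxic ischemia for 8. The shares over all tested genes are not given here, so these counts do not set the 9 genes apart. Of 10 forebrain marker genes 8 were bright enough to be tested, with a mean level of 7.93 to 8.35 per array. Of 9 hindbrain and cerebellum markers 4 were, with a mean level of 7.28 to 8.08 per array. Both means cover only genes past the brightness filter, so they cannot decide whether the forebrain label holds. In bulk tissue, a change in the number of astrocytes and a change in RNA per cell cannot be told apart.

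**Figure D1:**
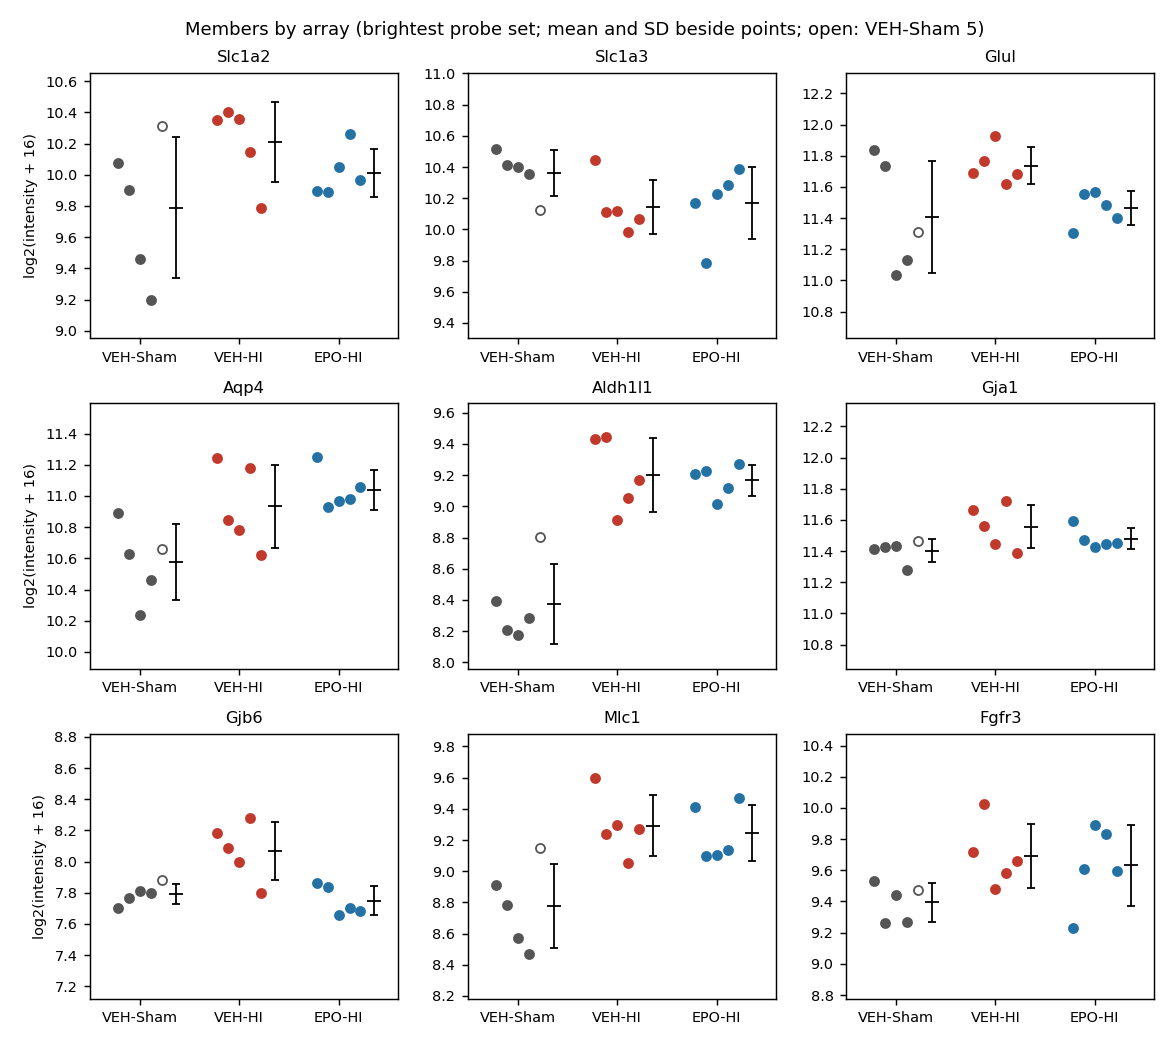
Level of each of the 9 genes, as log2(intensity + 16), on the 15 arrays by group, with the mean and SD (n = 5) beside the points and VEH-Sham 5 as an open circle. All arrays of hypoxic ischemia lie above all VEH-Sham arrays for Aldh1l1, and VEH-Sham 5 is the highest VEH-Sham array for Slc1a2, Aldh1l1, Gja1, Gjb6 and Mlc1 and the lowest for Slc1a3.

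VEH-HI against VEH-Sham addresses the response to hypoxic ischemia without erythropoietin. Aldh1l1, Mlc1, Aqp4 and Gjb6 rose by 1.21 to 1.78 times, none of the 9 genes fell, and Slc1a2, Slc1a3, Glul, Gja1 and Fgfr3 did not pass the test. The 4 of 9 genes called (limma, Benjamini-Hochberg adjusted p under 0.05) stand beside 23.4% of all tested genes called in either direction. The median difference was 0.33 over the 9 genes and -0.02 over all tested genes, with 8 of the 9 above 0. Against VEH-Sham 5 alone the median was 0.19, again with 8 above 0. Of all tested genes 11.9% were called higher. Of the 23 tested probe sets 7 were called higher and 1 lower, 34.8% against 22.8% of all tested probe sets, of which 9.85% were higher. At an unadjusted p under 0.05 there were 11 of the 23, beside 37.5% of all. In a fit with a term for the 2 sets of arrays, and in one with VEH-Sham 5 as the only sham array, each of which rests on 1 sham array for this comparison, limma called 0 of the 23, beside 0.0111% and 0.0259% of all 27022 tested probe sets. Scaling also mattered: of all called probe sets 43.1% were higher in VEH-HI as deposited, 53.3% after quantile normalization and 85.6% after the arrays were set to equal medians, which moved the median of all probe sets from -0.06 to 0.18. Of the 9 genes 2 were called after quantile normalization and 8 at equal medians, beside 21.2% and 28.6% of all tested probe sets. The count of genes became 2 when VEH-Sham 3 or 4, VEH-HI 6, 7 or 9, or EPO-HI 14 or 15 was left out. The count of probe sets was 4 without VEH-HI 6, VEH-Sham 3 or VEH-Sham 4 and 5 without VEH-HI 7 or 9. In these leave-one-out fits 14.2% to 21.9% of all tested probe sets were called, beside 22.8% with all arrays.

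Aldh1l1 had the largest difference of the 9 genes. Its level was 8.39, 8.21, 8.17, 8.29 and 8.81 in VEH-Sham 1 to 5, and 9.43, 9.45, 8.91, 9.05 and 9.17 in VEH-HI 6 to 10. In EPO-HI 11 to 15 it was 9.20, 9.22, 9.02, 9.11 and 9.27. No array of hypoxic ischemia reached down to the sham arrays, of which VEH-Sham 5 was the highest. The mean went from 8.37 ± 0.26 to 9.20 ± 0.24 (SD, n = 5 each), a difference of 0.83 (SE 0.12, limma adjusted p = 0.000421) that was 0.40 from VEH-Sham 5. Aldh1l1 was the 1 gene of the 9 whose VEH-HI and VEH-Sham arrays did not overlap, as was the case for 8.68% of all tested genes. The call held without any single array, with a limma adjusted p of up to 0.00200, and was lost with a term for the array sets (adjusted p = 0.700).

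Mlc1, the endfoot membrane protein gene, was also called higher, with a smaller difference. It was at 8.91, 8.78, 8.57, 8.47 and 9.15 in VEH-Sham and at 9.60, 9.24, 9.30, 9.05 and 9.27 in VEH-HI. VEH-Sham 5 lay above VEH-HI 9, so the groups overlapped through these arrays. The difference was 0.51 (SE 0.13, limma adjusted p = 0.00787), and 0.14 from VEH-Sham 5.

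Aqp4, the water channel gene, was measured by 3 tested probe sets. The brightest, 1434449_at, was at 10.89, 10.63, 10.24, 10.46 and 10.66 in VEH-Sham and at 11.24, 10.84, 10.78, 11.18 and 10.62 in VEH-HI. VEH-HI 6 and 9 were the high arrays, and VEH-HI 7, 8 and 10 lay within the sham range. The difference was 0.36 (SE 0.12, limma adjusted p = 0.0428), and 0.27 from VEH-Sham 5. Probe set 1425382_a_at gave 0.39 (SE 0.13, limma adjusted p = 0.0359, 0.14 from VEH-Sham 5), and 1447745_at gave 0.02 without passing (SE 0.14, 0.07 from VEH-Sham 5). The call of 1434449_at was lost under quantile normalization (adjusted p = 0.120). Leaving out VEH-Sham 2, 3 or 4, VEH-HI 6, 7 or 9, or EPO-HI 14 or 15 also ended it (adjusted p up to 0.130). For 1425382_a_at the call ended when VEH-Sham 1, 2, 3 or 4 or VEH-HI 6, 9 or 10 was left out (adjusted p 0.0503 to 0.110) and under quantile normalization (adjusted p = 0.0757).

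Neither glutamate transporter gene was called on its brightest probe set. Slc1a2 stood at 10.08, 9.90, 9.46, 9.20 and 10.31 in VEH-Sham and at 10.35, 10.40, 10.36, 10.15 and 9.79 in VEH-HI. VEH-Sham 3 and 4 were low, VEH-Sham 5 was within the VEH-HI range, and VEH-HI 10 was the lowest of its group. The difference was 0.42 (SE 0.16, 95% interval 0.08 to 0.76, limma adjusted p = 0.0673) and turned to -0.10 against VEH-Sham 5. It passed without VEH-HI 10 (adjusted p = 0.0315) and without VEH-Sham 5 (adjusted p = 0.00923). The other tested probe sets, 1439940_at and 1451627_a_at, were at 0.17 and 0.03 without passing, and at 0.38 and 0.15 from VEH-Sham 5.

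Slc1a3 was measured by 4 tested probe sets that did not share a direction. The brightest, 1426340_at, was at 10.52, 10.41, 10.40, 10.36 and 10.12 in VEH-Sham and at 10.44, 10.11, 10.12, 9.98 and 10.07 in VEH-HI. The difference was -0.22 (SE 0.11, limma adjusted p = 0.157), but 0.02 from VEH-Sham 5 and 0.03 after the arrays were set to equal medians. Probe set 1452031_at rose by 0.54 (SE 0.13, limma adjusted p = 0.00752) with 0.04 from VEH-Sham 5. Here VEH-Sham 1 to 4 were at 9.29, 9.79, 9.51 and 9.31 and VEH-Sham 5 at 10.10, inside the VEH-HI range of 9.94 to 10.36. For this probe set the difference was thus between VEH-Sham 1 to 4 and all other arrays. Probe sets 1426341_at (0.26, but -0.16 from VEH-Sham 5) and 1443749_x_at (-0.01, but 0.06 from VEH-Sham 5) did not pass.

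Glul was at 11.83, 11.73, 11.03, 11.13 and 11.31 in VEH-Sham, the widest spread of a sham group after Slc1a2 among the 9 genes (SD 0.36 and 0.45). In VEH-HI it was at 11.69, 11.77, 11.92, 11.62 and 11.68. The difference of 0.33 (SE 0.13, limma adjusted p = 0.0644) was 0.43 from VEH-Sham 5, and it passed without VEH-Sham 1 or 2 (adjusted p 0.0202 and 0.0347). The second probe set, 1426235_a_at, was at -0.03 (SE 0.13, -0.19 from VEH-Sham 5). Fgfr3 stood at 9.39 ± 0.12 in VEH-Sham and 9.69 ± 0.21 in VEH-HI (SD, n = 5 each), a difference of 0.30 (SE 0.12, limma adjusted p = 0.0732) that was 0.22 from VEH-Sham 5 and passed without EPO-HI 11 (adjusted p = 0.0454). Its dimmer probe set, 1425796_a_at, was at -0.23 (SE 0.13, -0.05 from VEH-Sham 5), so the 2 probe sets of this gene differed in sign.

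**Figure D2:**
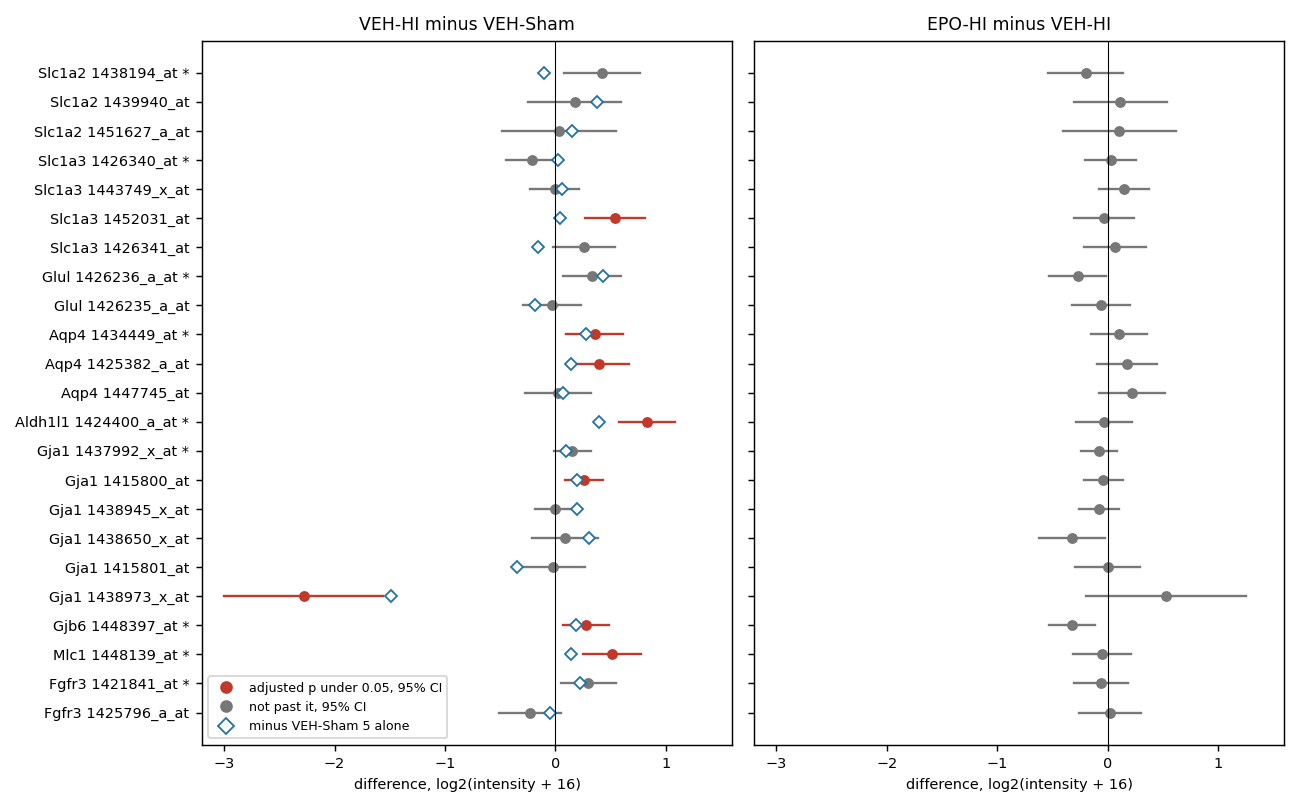
Differences in log2(intensity + 16) for the 23 tested probe sets, VEH-HI minus VEH-Sham on the left and EPO-HI minus VEH-HI on the right, with 95% intervals from limma (circles) and the difference from VEH-Sham 5 alone (open diamonds). An asterisk marks the probe set that represents its gene, red marks an adjusted p under 0.05, and 8 probe sets are red on the left and 0 on the right.

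The connexin genes gave the most divided picture. Gjb6, with 1 probe set, was at 7.70, 7.77, 7.81, 7.80 and 7.88 in VEH-Sham, a narrow spread, and at 8.18, 8.09, 7.99, 8.28 and 7.80 in VEH-HI. In VEH-HI 4 of 5 arrays lay above every sham array, and VEH-HI 10 lay among them. The difference was 0.28 (SE 0.10, limma adjusted p = 0.0489), and 0.19 from VEH-Sham 5. The call stood just inside the threshold and ended when any of 13 arrays, all but VEH-Sham 5 and VEH-HI 10, was left out (adjusted p 0.0530 to 0.118) and under quantile normalization (adjusted p = 0.0540).

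Gja1 had 6 tested probe sets. The brightest, 1437992_x_at, went from 11.40 ± 0.07 to 11.56 ± 0.14 (SD, n = 5 each), a difference of 0.15 (SE 0.08, limma adjusted p = 0.162, 0.09 from VEH-Sham 5). Probe set 1415800_at rose by 0.26 (SE 0.08, limma adjusted p = 0.0331, 0.19 from VEH-Sham 5), a call that ended when VEH-Sham 1, 3 or 4 or VEH-HI 6 or 7 was left out (adjusted p 0.0569 to 0.104) and under quantile normalization (adjusted p = 0.234). The probe sets 1438945_x_at, 1438650_x_at and 1415801_at were at -0.01, 0.08 and -0.02 without passing, and at 0.20, 0.31 and -0.35 from VEH-Sham 5.

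One Gja1 probe set went far the other way. Probe set 1438973_x_at was at 8.85, 8.85, 9.07, 8.84 and 7.92 in VEH-Sham and at 7.39, 5.77, 5.71, 6.52 and 6.74 in VEH-HI. In EPO-HI it was at 7.79, 7.31, 6.44, 5.66 and 7.58. All 10 arrays of hypoxic ischemia were below all sham arrays, VEH-Sham 5 lay between the other sham arrays and the rest, and the groups of hypoxic ischemia spread widely. Of the 23 tested probe sets this and that of Aldh1l1 had VEH-HI and VEH-Sham arrays that did not overlap, beside 8.22% of all. It fell by 2.28 (SE 0.35, limma adjusted p = 0.000487), and the value from VEH-Sham 5 was -1.49. The suffix _x_at is the manufacturer's mark for a probe set with probes that also match other sequences, and 4 of the 6 Gja1 probe sets carry it. Its part in this difference was not tested. The mean of all 6 probe sets was at -0.30, and the mean without 1438973_x_at, an alternative chosen after the values were seen, was at 0.09.

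**Figure D3:**
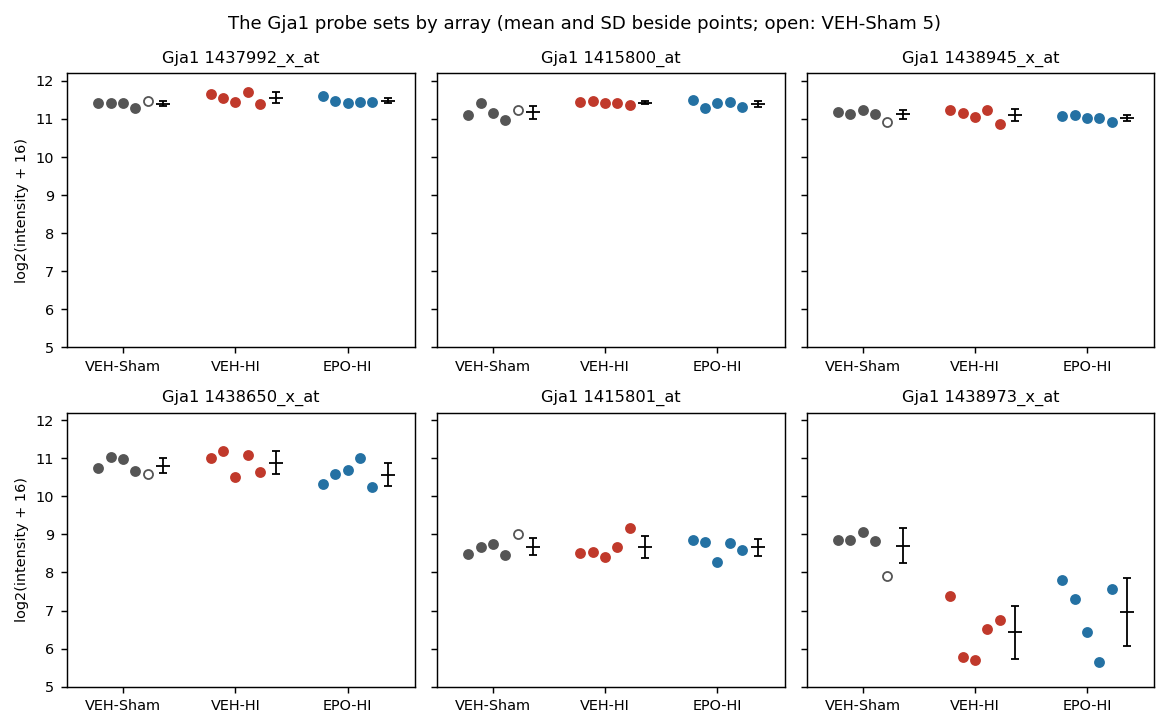
Level of the 6 tested Gja1 probe sets, as log2(intensity + 16), on the 15 arrays by group, with the mean and SD (n = 5) beside the points and VEH-Sham 5 as an open circle. In 5 panels the group means lie close together, while 1438973_x_at has a mean of 8.71 in VEH-Sham, 6.43 in VEH-HI and 6.96 in EPO-HI.

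EPO-HI against VEH-HI addresses erythropoietin given before the injury, and all 10 of its arrays belong to the larger set. No probe set of the 9 genes was called (0 of 23, limma adjusted p = 1.00 for each), and 0% of all 27022 tested probe sets were. At an unadjusted p under 0.05 there were 3 of the 23 probe sets, and 1066 of all tested (3.94%). Without VEH-HI 8, 4 of all tested probe sets were called and 0 of the 23. The median difference over the 9 genes was -0.06, beside -0.01 over all tested genes.

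The 3 probe sets below the unadjusted threshold were lower in EPO-HI and belong to Gjb6, Glul and Gja1. Gjb6 was at 7.86, 7.84, 7.66, 7.70 and 7.68 in EPO-HI, with EPO-HI 11 and 12 inside the sham range and the others at or just below its lower end. All EPO-HI arrays were below VEH-HI 6 to 9, and VEH-HI 10 lay among them. EPO-HI minus VEH-HI was -0.32 (SE 0.10, 95% interval -0.53 to -0.11). EPO-HI minus VEH-Sham was -0.04 (SE 0.10, limma adjusted p = 0.800, -0.13 from VEH-Sham 5). Glul was at 11.31, 11.56, 11.57, 11.49 and 11.40 in EPO-HI, below every VEH-HI array, with a difference of -0.27 (SE 0.13, 95% interval -0.53 to -0.01). Groups that do not overlap were found in this comparison for 1 of the 9 genes and for 0.729% of all tested genes. The other Glul probe set was at -0.06 (SE 0.13). The third was the Gja1 probe set 1438650_x_at at -0.32 (SE 0.14), while the other 5 Gja1 probe sets were between -0.08 and 0.53. None of these differences passed the adjustment over all probe sets.

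For the brightest probe sets of the remaining genes the intervals show what size of erythropoietin difference the data allow. Aldh1l1 differed by -0.04 (95% interval -0.29 to 0.22), Mlc1 by -0.05 (-0.31 to 0.21) and Fgfr3 by -0.06 (-0.31 to 0.19). The interval ran from -0.54 to 0.14 for Slc1a2, from -0.20 to 0.26 for Slc1a3, from -0.15 to 0.36 for Aqp4 and from -0.24 to 0.09 for the brightest Gja1 probe set. Other probe sets allowed larger rises. The widest interval of the 23 tested probe sets was that of Gja1 1438973_x_at, from -0.19 to 1.25. For Gja1 it was also -0.29 to 0.29 on 1415801_at, -0.21 to 0.14 on 1415800_at and -0.26 to 0.10 on 1438945_x_at. On Gja1 1438650_x_at it was -0.62 to -0.02, with a lower upper end. For Fgfr3 it was -0.26 to 0.30 on 1425796_a_at. For Slc1a2 it was -0.31 to 0.54 on 1439940_at and -0.41 to 0.62 on 1451627_a_at. For Aqp4 it was -0.09 to 0.45 on 1425382_a_at and -0.07 to 0.52 on 1447745_at. For Slc1a3 it was -0.08 to 0.37 on 1443749_x_at, -0.21 to 0.35 on 1426341_at and, with a lower upper end, -0.30 to 0.24 on 1452031_at.

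EPO-HI against VEH-Sham shares its sham arrays with the first comparison and its treated arrays with the second, so its values are given only side by side with those. Aldh1l1 (0.79, SE 0.12, limma adjusted p = 0.00123), Mlc1 (0.47, SE 0.13, 0.0167) and Aqp4 (0.46, SE 0.12, 0.0166) were higher in EPO-HI, 3 of 9 genes beside 18.3% of all tested genes called and 8.86% called higher. From VEH-Sham 5 alone these were 0.36, 0.09 and 0.38. EPO-HI 11 to 15 were at 11.25, 10.93, 10.96, 10.98 and 11.06 for Aqp4, above every sham array, and with Aldh1l1 2 of the 9 genes had groups that did not overlap, beside 7.42% of all. Mlc1 was at 9.41, 9.10, 9.10, 9.14 and 9.47, of which 3 arrays lay below VEH-Sham 5. The Mlc1 call was lost without VEH-Sham 3 or 4 (limma adjusted p 0.0515 and 0.0561). That of Aqp4 was lost without VEH-Sham 3 (limma adjusted p = 0.0556), which left 1 gene called without VEH-Sham 3. Without VEH-Sham 3 and 4, 9.96% and 9.29% of all tested probe sets were called. Of the 23 probe sets 6 were called, 26.1% beside 18.3% of all probe sets, with 5 higher beside 7.42% of all: those of the 3 genes, Aqp4 1425382_a_at (0.57), Slc1a3 1452031_at (0.51) and Gja1 1438973_x_at (-1.75). From VEH-Sham 5 alone the last 3 were at 0.32, 0.0077 and -0.96.

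Among the 10 arrays of hypoxic ischemia the 9 genes did not rise and fall as 1 group. After each group's mean was subtracted, Pearson's r of the 36 pairs ran from -0.60 to 0.94 with a median of 0.22, and 24 pairs were above 0. The closest pairs joined Gja1, Gjb6 and Aqp4, with the highest r for Aqp4 and Gja1 (0.9374, beside 0.9369 for Gja1 and Gjb6). Gja1 and Gjb6, the main astrocyte connexin genes, had r = 0.94 (exact permutation p = 0.000139 over 14400 within-group permutations) and Spearman's rho = 0.96 (exact permutation p = 0.000139). Over all 63 relations computed, the adjusted exact permutation p was 0.00875 for r. Without VEH-HI 9 and 10, the arrays farthest out in Gja1, r was 0.86. It was 0.97 within VEH-HI and 0.81 within EPO-HI, but 0.18 within VEH-Sham (5 arrays each, no test). Both genes were highest in VEH-HI 9 and lowest, against their group, in VEH-HI 10.

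This relation depended on the Gja1 probe set. With Gjb6, r was 0.94 for 1437992_x_at and 1438945_x_at but between -0.22 and 0.33 for the other 4 Gja1 probe sets. Both at 0.94 carry the suffix _x_at, as do 1438650_x_at (0.33) and 1438973_x_at (0.30). Without it, 1415800_at was at 0.24 and 1415801_at at -0.22. The part of the suffix in this was not tested. The relations of Gja1 with other genes and with marker lists used 1437992_x_at alone. Aqp4 had r = 0.94 with Gja1 (exact permutation p = 0.00264, 0.0831 adjusted over the 63 relations, rho = 0.78 with exact permutation p = 0.0440) and r = 0.82 with Gjb6 (exact permutation p = 0.0159, 0.167 adjusted, rho = 0.72 with exact permutation p = 0.0538). Without VEH-HI 6 and 9, the arrays farthest out in Aqp4, these were 0.92 and 0.74. VEH-HI 10 stayed in. Mlc1 and Slc1a3 had r = 0.71 (exact permutation p = 0.0293, 0.231 adjusted, rho = 0.68 with exact permutation p = 0.0446). Without EPO-HI 12 and VEH-HI 6, the arrays farthest out in Slc1a3, r was 0.56. Glul had its lowest values with Aqp4 and Gja1, at -0.59 and -0.60. Of the 63 relations 1 passed the adjustment and 12 had an unadjusted exact permutation p under 0.05.

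**Figure D4:**
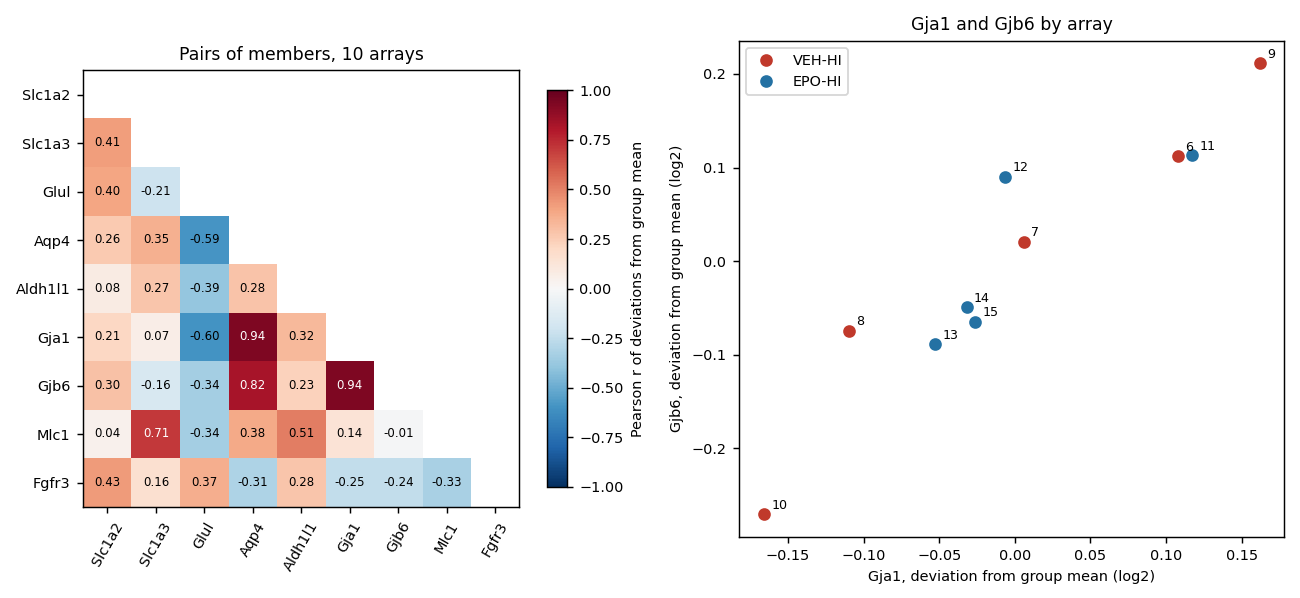
Left, Pearson's r for each pair of the 9 genes over the 10 arrays of hypoxic ischemia, after subtraction of each group's mean (n = 10). Right, deviations of Gja1 (1437992_x_at) and Gjb6 from their group means on the log2 scale, 1 point per array with its number, running from VEH-HI 10 at the lower left to VEH-HI 9 at the upper right.

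The relations were also computed with the mean level of 3 marker lists on the same arrays, which was decided with the values known. The 2 farthest arrays were here those farthest out in the marker list. They were VEH-HI 6 and 10 for reactive astrocytes and for neurons, and VEH-HI 8 and EPO-HI 13 for microglia and macrophages. Mlc1 had r = 0.82 with reactive astrocyte markers (exact permutation p = 0.0105, 0.158 adjusted over the 63 relations, rho = 0.79 with exact permutation p = 0.0143, r = 0.93 without the 2 farthest arrays). Aqp4 had r = -0.82 with neuron markers (exact permutation p = 0.0101, 0.158 adjusted, rho = -0.73 with exact permutation p = 0.0458, r = -0.63 without the 2 farthest). Aldh1l1 had r = 0.75 with microglia and macrophage markers (exact permutation p = 0.0126, 0.158 adjusted, rho = 0.73 with exact permutation p = 0.0185, r = 0.58 without the 2 farthest). Reactive astrocyte markers had r = 0.64 with Aqp4, 0.58 with Slc1a3, 0.46 with Gja1, 0.45 with Slc1a2, 0.43 with Gjb6 and 0.40 with Aldh1l1. Without the 2 farthest arrays these were 0.15, 0.40, -0.04, -0.15, -0.15 and 0.18. Slc1a3 had rho = 0.66 with this list (exact permutation p = 0.0390). Glul and Fgfr3 were at r = -0.16 and -0.34 with it. With neuron markers r was -0.77 for Gja1, -0.68 for Gjb6, -0.72 for Aldh1l1 and -0.67 for Mlc1 (exact permutation p = 0.0216, 0.0651, 0.0374 and 0.0482, adjusted 0.194 to 0.315). Their rho was -0.77, -0.70, -0.72 and -0.47 (exact permutation p = 0.0280, 0.0483, 0.0476 and 0.203), and r without the 2 farthest arrays was -0.68, -0.57, -0.68 and -0.52. With microglia and macrophage markers r was 0.65 for Gja1, 0.66 for Gjb6 and 0.58 for Aqp4 (exact permutation p = 0.0480, 0.0410 and 0.0896, adjusted 0.253 to 0.351). Here rho was 0.68, 0.70 and 0.52 (exact permutation p = 0.0387, 0.0375 and 0.143), and r without the 2 farthest arrays was 0.58, 0.67 and 0.57. Some relations had the other sign. Glul had r = 0.56 with neuron markers (0.80 without the 2 farthest arrays) and -0.48 with microglia and macrophage markers (0.05 without them). Fgfr3 was at 0.25 and -0.23 with these lists, Slc1a2 at -0.17 and -0.04 and Slc1a3 at -0.35 and -0.05. Mlc1 was at 0.43 with microglia and macrophage markers. The part of these cell types in the relation of Gja1, Gjb6 and Aqp4 was not tested. None of these 27 passed the adjustment.

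Other genes were ranked by their likeness to each of the 9, as Pearson's r over the same 10 arrays, a description with no test since each is the highest of 13167. For Gja1 the most alike were Ciao2a, Hsdl2 and Bola3 (r 0.96, 0.96 and 0.95), and for Gjb6 Hsdl2, Lactb2 and S100b (0.97, 0.96 and 0.96), S100b being a calcium-binding protein gene of astrocytes. Hsdl2 was thus among the 3 nearest of both connexin genes. Mlc1 was nearest to Pdpn, a surface glycoprotein gene, Pllp and Lbp (0.97, 0.96 and 0.96). Aldh1l1 was nearest to Ly6e, Mmd2 and Cotl1 (0.95, 0.94 and 0.94), and Aqp4 to 2810408B13Rik, Pwwp3b and the cholesterol exporter gene Abca1 (0.96, 0.95 and 0.94). Nearest to Slc1a2 were Slc16a11, Sfrp1 and Robo2 (0.94, 0.94 and 0.93), to Slc1a3 Tmem51, Adgrf5 and 9430041J12Rik (0.97, 0.92 and 0.90), to Glul Orai2, Kcnf1 and Nsl1 (0.95, 0.95 and 0.93), and to Fgfr3 Map1a, Pex5 and Zc3h7b (0.95, 0.94 and 0.93).

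The promoters of Gja1 and Gjb6 are shown because theirs was the 1 relation that passed the adjustment, and that of Aldh1l1 because it had the largest rise. Each window holds 250 bases before to 50 after the gene's start in RefSeq (GRCm38.p6), read on the gene's strand. Of the 9 genes, 8 matched, all but Aqp4, with 9 windows in all since Fgfr3 has 2. Capitals mark motif matches on either strand, of 4 searched: TGANTCA (the AP-1 site), TTCNNNGAA (the STAT site), CATTGT (a SOX core) and the full palindromic NFI site. These factors are known to act in astrocytes.
Gja1, chr10:56377050-56377349, plus strand: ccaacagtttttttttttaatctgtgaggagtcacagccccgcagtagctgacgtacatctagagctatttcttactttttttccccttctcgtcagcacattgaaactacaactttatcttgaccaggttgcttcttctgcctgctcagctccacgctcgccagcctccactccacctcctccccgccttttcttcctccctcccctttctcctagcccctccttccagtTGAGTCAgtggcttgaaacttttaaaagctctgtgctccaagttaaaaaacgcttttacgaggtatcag
Gjb6, chr14:57133562-57133861, minus strand: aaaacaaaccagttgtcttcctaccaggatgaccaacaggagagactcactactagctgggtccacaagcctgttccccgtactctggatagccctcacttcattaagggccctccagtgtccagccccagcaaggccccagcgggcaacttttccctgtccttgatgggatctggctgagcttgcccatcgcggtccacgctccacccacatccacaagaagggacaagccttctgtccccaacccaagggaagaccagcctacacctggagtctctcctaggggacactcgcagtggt
Aldh1l1, chr6:90550543-90550842, plus strand: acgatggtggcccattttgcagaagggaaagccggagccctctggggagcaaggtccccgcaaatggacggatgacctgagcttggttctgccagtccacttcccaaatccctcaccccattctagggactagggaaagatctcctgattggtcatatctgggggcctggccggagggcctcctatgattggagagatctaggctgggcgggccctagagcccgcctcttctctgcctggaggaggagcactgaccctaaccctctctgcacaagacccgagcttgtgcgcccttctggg
The Gja1 window held 1 match to TGANTCA, starting 19 bases before the start of the gene, and those of Gjb6 and Aldh1l1 held none of the 4 motifs. Of the other 6 windows, that of Slc1a3 held 1 TTCNNNGAA, 96 bases before its start. Over all 32851 windows of 300 bases, 7.81% held TGANTCA, 8.30% TTCNNNGAA, 12.6% CATTGT and 0.0365% the NFI site. A match describes letters only and is not a sign of binding.

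Further genes of the same functions were taken from 6 lists with 109 distinct genes, of which 87 were tested. In VEH-HI against VEH-Sham 14 rose and 9 fell, 26.4% called beside 23.4% of all tested genes, with a median of 0.10. With VEH-Sham 5 as the only sham array, and with a term for the array sets, limma called 0. The count of 23 became 15 when VEH-Sham 1, 3 or 4 or VEH-HI 9 was left out, where 14.2% to 18.8% of all tested probe sets were called. EPO-HI against VEH-HI had 0 calls by limma. EPO-HI against VEH-Sham had 9 rises and 6 falls, 17.2% beside 18.3%. It had 7, 9 and 26 calls without VEH-Sham 3, 4 and 5, where 9.96%, 9.29% and 33.5% of all tested probe sets were called.

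Of 16 genes of glutamate and GABA uptake and metabolism 0 rose and 2 fell after hypoxic ischemia (median 0.00, but -0.21 from VEH-Sham 5 with 5 of 16 above 0). The fallers were Slc7a10, an astrocyte transporter gene for serine and other small amino acids (-0.38, SE 0.11, limma adjusted p = 0.0207, -0.42 from VEH-Sham 5), and Slc1a6, a neuronal glutamate transporter gene (-0.49, SE 0.16, 0.0327, -0.53). This list had 0 calls without VEH-Sham 1, VEH-Sham 3 or VEH-HI 9, 1 without VEH-Sham 2 or VEH-HI 10 and 6 without VEH-Sham 5. Of all tested probe sets 35.6% were called without VEH-Sham 5 and 14.4% to 18.8% in the others of these fits. Of 14 genes of water and potassium transport and the endfoot complex 2 rose and 2 fell (median 0.03, also from VEH-Sham 5). The 4 calls became 1 without VEH-Sham 4, VEH-HI 6 or VEH-HI 7 and 2 without VEH-Sham 2, VEH-HI 9 or VEH-HI 10. In these fits 14.2% to 18.8% of all tested probe sets were called. The water channel gene Aqp1 (0.62, SE 0.21, limma adjusted p = 0.0362, 0.44 from VEH-Sham 5) and the sodium pump subunit gene Atp1b2 (0.37, 0.0386, 0.23) rose, and Dmd, which encodes the endfoot scaffold protein dystrophin (-0.33, 0.0169, -0.17), and Aqp11 (-0.38, 0.0416, -0.32) fell. Of 8 other connexins, pannexins and partners 1 passed, the caveolin gene Cav1, which rose by 1.20 (SE 0.16, limma adjusted p = 0.000175, 0.97 from VEH-Sham 5), and no other connexin gene did (list median 0.06, 0.20 from VEH-Sham 5). This list had 2 calls without VEH-HI 7 or 10, where 18.4% and 18.7% of all tested probe sets were called.

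Of 28 other genes enriched in astrocytes 8 rose and 3 fell (median 0.18, 0.02 from VEH-Sham 5). The 11 calls became 7 without VEH-Sham 1, 3 or 4 or VEH-HI 6 or 9, where 14.2% to 18.8% of all tested probe sets were called. The protease inhibitor gene Cst3 (0.54, SE 0.12, limma adjusted p = 0.00460) and the glycolytic gene Aldoc (0.41, SE 0.10, 0.00809) were at 0.07 and 0.08 from VEH-Sham 5, whereas Nfia, a transcription factor gene of the astrocyte lineage, was at 0.46 (SE 0.12, 0.0120) and 0.25. Chrdl1, a secreted antagonist of bone morphogenetic proteins, fell by 0.60 (SE 0.15, limma adjusted p = 0.0104), with -0.33 from VEH-Sham 5. Of 13 FGF receptors, ligands and feedback genes 1 rose and 1 fell (median 0.02, 0.11 from VEH-Sham 5): Spry2, a feedback inhibitor gene (0.26, limma adjusted p = 0.0454), and Fgf9, a ligand gene (-0.93, limma adjusted p = 0.00320), at 0.34 and -0.12 from VEH-Sham 5. The 2 calls became 1 when any of VEH-Sham 1 to 5, VEH-HI 6, 8 or 9 or EPO-HI 14 was left out. In these fits 14.2% to 35.6% of all tested probe sets were called, the most without VEH-Sham 5. Of 11 folate one-carbon genes 2 rose and 2 fell (median -0.01, 0.02 from VEH-Sham 5), with the serine hydroxymethyltransferase genes Shmt2 at 0.51 (limma adjusted p = 0.00471) and Shmt1 at -0.68 (limma adjusted p = 0.0273) on opposite sides, at 0.23 and -0.35 from VEH-Sham 5.

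Reactive astrocyte markers moved further on the same arrays. Of 11 tested 8 rose and 0 fell in VEH-HI (median 1.32, 1.27 from VEH-Sham 5), with the filament gene Gfap at 1.32 (SE 0.27, limma adjusted p = 0.00285, 1.17 from VEH-Sham 5). Their mean level per array ran from 6.65 to 7.00 in VEH-Sham, from 7.25 to 9.00 in VEH-HI and from 7.48 to 8.42 in EPO-HI. Whether the 9 genes and these markers differ was not tested. Of 10 microglia and macrophage markers 6 rose and 1 fell, with mean levels of 7.65 to 7.85 in VEH-Sham and 8.04 to 8.44 in VEH-HI. Of 11 neuron markers 0 rose and 2 fell, with mean levels of 10.68 to 10.94 and 10.38 to 10.79. Endothelial markers ran from 6.83 to 7.07 in VEH-Sham and from 6.88 to 7.65 in VEH-HI, oligodendrocyte markers from 7.83 to 8.10 and from 7.33 to 8.14, and choroid plexus markers from 7.22 to 7.44 and from 7.43 to 7.55. Of 9 markers of meninges and fibroblasts 4 rose, with mean levels of 7.45 to 7.81 in VEH-Sham and 7.79 to 8.28 in VEH-HI. Of 6 neutrophil markers 2 rose, with 5.42 to 5.66 and 5.53 to 7.23. Beside these counts, 11.9% of all tested genes were called higher and 23.4% in either direction. Median differences in VEH-HI were 0.53 for microglia and macrophages, -0.15 for neurons, 0.23 for endothelium, 0.37 for meninges and fibroblasts and 0.56 for neutrophils. From VEH-Sham 5 these were 0.45, -0.24, 0.03, 0.02 and 0.71. Choroid plexus and oligodendrocyte markers were at 0.26 and -0.14, and at 0.09 and -0.12 from VEH-Sham 5. The part of these cell types in the differences of the 9 genes was not tested.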

How the data were processed

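Each deposited value is a linear intensity of 1 probe set on 1 array. Judging from the values, the authors scaled every array to a mean of 150.0 with 2% trimmed at each end. The sources used here name no software for the probe set summaries. All 15 value columns were matched to samples by accession. Of 45101 probe sets 64 controls were left out. Of the rest 34945 had 1 gene symbol, 932 several and 9160 were not listed in the platform's annotation table; symbols were updated by gene number (GRCm38.p6, 0 changed). Arrays limit the precision by their number.

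Values became log2(intensity + 16), and the brightest 60% of probe sets by mean were tested (27022) in 1 model of 3 group means over 15 arrays (limma 3.58.1, eBayes with trend, R 4.3.3), two-sided, with Benjamini-Hochberg adjustment over all tested probe sets and a threshold of 0.05. The fit was tested on simulated data. A gene stands by its brightest tested probe set. All 9 genes were named; of each list, up to 4 with the smallest p after hypoxic ischemia could be. Of 109 listed genes 3 stood in 2 lists. The array set is the division at the largest gap between array medians (0.240, log2). Relations used 14400 within-group permutations (scipy 1.17.1, Python 3.11.15). Figures used matplotlib 3.10.9. Alternatives covered scaling, pseudocount, filter, prior, array set, probe set and each array left out. The genes, lists and relations were chosen with earlier results of these data known. The labels' replicate numbers run from 1 to 15, so no numbers pair arrays.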

Additional observations from a re-analysis of the deposited data

Results flagged for a closer look

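A screen of 69 sets of 5 arrays (23 tested probe sets in 3 groups) looked for an array whose gap to its nearest neighbour took more of the group's range than Dixon's critical value allows, which chance gives in about 1 of 20 sets. It found 8. For Slc1a2 1451627_a_at, VEH-HI 9 was low (4.604, next 5.75, ratio 0.726) and EPO-HI 13 was low (5.35, next 5.83, ratio 0.840). For Slc1a3, VEH-HI 6 was high on 1426340_at (10.44, next 10.12, ratio 0.7103) and on 1443749_x_at (10.14, next 9.85, ratio 0.923). EPO-HI 13 was low on Glul 1426235_a_at (8.52, next 9.04, ratio 0.836). On Gja1 1437992_x_at, VEH-Sham 4 was low (11.28, next 11.41, ratio 0.749) and EPO-HI 11 was high (11.60, next 11.47, ratio 0.728). On Gja1 1438973_x_at, VEH-Sham 5 was low (7.92, next 8.84, ratio 0.798), on the side of the arrays of hypoxic ischemia.

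Among the 6 probe sets of these genes that were not tested, Aldh1l1 1424401_at was higher in all 10 arrays of hypoxic ischemia (5.16 and above) than in all 5 sham arrays (up to 5.04), with a mean difference of 0.63. From VEH-Sham 5 alone the difference was 0.20 in VEH-HI and 0.40 in EPO-HI. Of all 18015 untested probe sets 26 (0.144%) had all arrays of hypoxic ischemia above all sham arrays. Within the groups the order of arrays was not that of the tested Aldh1l1 probe set.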

How the results depend on the processing

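With a term for the array set, and with the larger set alone, counts against VEH-Sham were 0 for the 23 probe sets, the 9 genes and the lists. Both fits rest on VEH-Sham 5 alone as sham and called 3 and 7 of all probe sets in VEH-HI, so these counts say nothing about stability; the median difference of the 9 genes was 0.33 in VEH-HI and 0.19 from VEH-Sham 5. VEH-HI against VEH-Sham, with 8 probe sets, 4 genes and 23 list genes called, gave 13, 8 and 39 at equal array medians. Of all tested probe sets 28.6% were then called, beside 22.8% as deposited. Of the probe sets 4 were called without the eBayes trend, 4 after quantile normalization and 5 with only the compared groups in the fit. The shares of all tested probe sets were 21.0%, 21.2% and 16.8%. Of the genes 2 were called under each of these settings and without the filter, where 15.8% of all probe sets were called. EPO-HI against VEH-Sham (6, 3 and 15) gave 13, 5 and 49 at equal medians, and 9 list genes without the trend. Of all tested probe sets 31.8% and 16.4% were then called, beside 18.3% in the main fit. Of all its calls 40.6% were higher, 53.4% after quantile normalization and 88.7% at equal medians.

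With 1 array left out, the counts ran from 4 to 10, 2 to 5 and 15 to 32 for VEH-HI against VEH-Sham, from 4 to 8, 1 to 3 and 7 to 26 for EPO-HI against VEH-Sham, and stayed at 0 for EPO-HI against VEH-HI. The share of all tested probe sets called ran from 14.2% to 35.6%, from 9.29% to 33.5% and from 0% to 0.0148% in these comparisons.

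Signs turned as follows; the cause was not tested. With the array set as a term, or the larger set alone, Slc1a2 was at -0.10 (VEH-HI) and -0.30 (EPO-HI) and Slc1a3 at 0.021 and 0.047 against VEH-Sham. At equal medians Slc1a3 was at 0.027 and 0.084, and Gjb6 at 0.23 in EPO-HI against VEH-Sham. After quantile normalization, EPO-HI against VEH-Sham was -0.026 for Gja1 and -0.047 for Glul. By the mean of a gene's probe sets, VEH-HI against VEH-Sham was -0.30 for Gja1 and 0.14 for Slc1a3; EPO-HI against VEH-Sham was -0.30 for Gja1, -0.021 for Glul and 0.20 for Slc1a3; EPO-HI against VEH-HI was 0.0023 for Gja1 and 0.0072 for Slc1a2. Without 1438973_x_at, chosen after seeing the data, the Gja1 mean was -0.010 in EPO-HI against VEH-Sham. With 1 array left out, EPO-HI against VEH-HI ran from -0.11 to 0.025 for Aldh1l1, from -0.13 to 0.040 for Fgfr3, from -0.11 to 0.028 for Mlc1 and from -0.029 to 0.12 for Slc1a3, and EPO-HI against VEH-Sham from -0.039 to 0.16 for Glul.

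No paired analysis was possible because the replicate numbers run through the series and no groups share any.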
